A study of Rattus norvegicus with 36 samples.

Results

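The organic anion uptake transporters followed here were Slco1a4, Slco1a1, Slco1b2, Slco2b1 and Slco2a1, 5 members of the solute carrier organic anion (OATP) family. The members were taken as every probe set whose platform annotation names one of these 5 symbols. This gave 9 probe sets, of 31042 tested, and 5 genes, of 14217 named, with 0 probe sets shared with another gene. Slco1a1 had a single probe set and each of the other genes had a pair. The study exposed male Harlan Sprague Dawley rats, 7 weeks old when it began, to PBDE47 (2,2',4,4'-tetrabromodiphenyl ether), a brominated flame retardant, by gavage in corn oil on each of 5 days. All groups, vehicle included, received corn oil and the NTP-2000 diet, and liver RNA came from the left lobe at necropsy 1 day after the last dose. Doses ran between 0.0485 and 485 mg/kg, with 0.485, 4.85 and 48.5 mg/kg in between, beside a vehicle group at 0 mg/kg. Each of the 6 groups had 6 arrays. An array was taken as the liver of a separate animal, which the labels do not state outright. An array value is a log2 RMA value per probe set, a relative brightness in whole liver with no absolute copy number. The probe sets' levels were therefore compared between animals and not with one another.

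OATP proteins sit in the plasma membrane and carry bulky organic anions into cells by exchange that needs no direct ATP use. In the rat liver, those of the blood-facing sinusoidal membrane of hepatocytes take up bile acids, conjugated steroids, bilirubin, thyroid hormones and many drugs. Slco1a4 encodes Oatp1a4, known for uptake of digoxin, Slco1a1 encodes Oatp1a1, and Slco1b2 encodes the liver-specific Oatp1b2. Slco2b1 encodes a broadly expressed carrier of steroid sulfates. Slco2a1 encodes the prostaglandin transporter PGT, which takes prostaglandins up from the outside of cells. Slco1a4 is known as a gene that ligands of the pregnane X receptor (PXR, Nr1i2) induce in rat liver.

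The sequences just before the transcription start are shown because Slco1a4 and Slco1a1, adjacent genes on chromosome 4, differed in their change while the bases around their starts are alike. All windows are from RefSeq on GRCr8, run from 250 bases before to 50 after the annotated start, and all 5 members matched. Over 282 aligned bases, 206 were identical between Slco1a4 and Slco1a1, which is 73.0% identity. The other pairs among the 8 Slco promoters compared ran between 45.2% (Slco1b2 and Slco2a1) and 59.7% (Slco1a4 and Slco1a5). In this pair of sequences, capitals mark 10 runs of at least 6 identical bases shared by that pair, 81 bases in all and 11 in the longest. Slco1a4 lies at chr4:176495797-176496096 and Slco1a1 at chr4:176681943-176682242, both on the minus strand.
Slco1a4: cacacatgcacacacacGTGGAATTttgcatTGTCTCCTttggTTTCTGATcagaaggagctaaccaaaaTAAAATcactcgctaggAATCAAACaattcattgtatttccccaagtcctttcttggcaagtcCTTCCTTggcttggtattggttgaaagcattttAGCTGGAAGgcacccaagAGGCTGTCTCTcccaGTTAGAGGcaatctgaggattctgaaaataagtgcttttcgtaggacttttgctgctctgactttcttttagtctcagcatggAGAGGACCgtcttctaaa
Slco1a1: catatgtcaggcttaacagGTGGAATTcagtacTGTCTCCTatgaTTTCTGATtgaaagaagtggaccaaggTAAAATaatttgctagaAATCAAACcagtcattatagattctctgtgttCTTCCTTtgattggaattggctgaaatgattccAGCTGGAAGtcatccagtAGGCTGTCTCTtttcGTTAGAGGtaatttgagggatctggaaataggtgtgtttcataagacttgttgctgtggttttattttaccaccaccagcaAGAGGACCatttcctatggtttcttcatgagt

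For Slco1b2 and Slco2a1, capitals mark matches to motifs that a search on both strands found. Slco1b2 lies at chr4:176282334-176282633 and Slco2a1 at chr8:112467489-112467788, both on the plus strand.
Slco1b2: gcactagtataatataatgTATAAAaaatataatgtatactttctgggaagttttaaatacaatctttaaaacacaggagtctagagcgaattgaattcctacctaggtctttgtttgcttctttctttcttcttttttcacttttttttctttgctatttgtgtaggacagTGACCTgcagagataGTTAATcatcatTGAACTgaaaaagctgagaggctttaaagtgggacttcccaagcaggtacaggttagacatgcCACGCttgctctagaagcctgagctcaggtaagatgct
Slco2a1: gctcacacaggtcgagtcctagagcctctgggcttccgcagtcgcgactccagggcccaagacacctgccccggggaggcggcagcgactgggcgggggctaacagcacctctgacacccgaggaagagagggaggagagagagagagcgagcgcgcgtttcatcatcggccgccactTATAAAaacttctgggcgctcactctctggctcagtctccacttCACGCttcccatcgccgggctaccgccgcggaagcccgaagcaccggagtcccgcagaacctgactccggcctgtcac
The Slco1b2 window held GTTAAT, the half-site of HNF1, at -63 to -58. It also held AGGTCA at -78 to -73 and AGTTCA at -51 to -46, nuclear receptor half-sites on the minus strand, GCGTG at 12 to 16 on the minus strand, and TATAAA at -231 to -226. Over all 33469 promoters, 7.45% held GTTAAT, 16.2% AGGTCA and 14.5% AGTTCA. The core of the xenobiotic response element, GCGTG, was in 29.7% of promoters, and in the Slco2a1 window it ran from -28 to -24 on the minus strand. TATAAA was in 14.2% of promoters and in the Slco2a1 window at -72 to -67. The Slco1a4, Slco1a1 and Slco2b1 windows held no match to these motifs or to TGACNNNGC, found in 12.1% of promoters. None of the 5 windows held paired nuclear receptor half-sites as a direct repeat with 3 or 4 spacing bases. An everted repeat with 6 was also absent. Over all promoters, 0.0777%, 0.0568% and 0.0388% held these repeats, in that order. Bases outside the windows were not searched, so a site farther from the start would be missed. The G+C content was 43.0% for Slco1a4, 39.0% for Slco1a1, 36.3% for Slco1b2, 56.7% for Slco2b1 and 65.0% for Slco2a1, whose window held 26 CG dinucleotides, against a median of 51.7% over all promoters.

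At 485 mg/kg, Slco1a4 RNA was higher and Slco2a1 RNA lower than in vehicle livers, on both of each gene's probe sets, while Slco1a1, Slco1b2 and Slco2b1 did not pass the test. The changes were modest, 1.29- and 1.51-fold higher for Slco1a4 and 1.36- and 1.35-fold lower for Slco2a1. At 48.5 mg/kg and below, 0 of the 9 probe sets passed against vehicle. A limma model over all 36 arrays gave the tests, and a probe set was called at a Benjamini-Hochberg adjusted p below 0.05 over all probe sets. Of the 9, the highest dose called 4 (background 15.0% of all probe sets), 2 of them higher (background 7.81%) and 2 lower (background 7.22%). The dose of 48.5 mg/kg called 0 (background 3.39%) and that of 4.85 mg/kg 0 (background 0.0193%). Both lower doses called 0 of all probe sets (background 0%). Over the 9 probe sets, log2 changes from vehicle at these 3 lower doses ran from -0.12 (Slco2b1, 1368296_at, at 0.485 mg/kg) to 0.21 (Slco1a4, 1387094_at, at 4.85 mg/kg). Unadjusted limma p-values below 0.05 numbered 1519, 1381 and 2006 probe sets, from the lowest dose upward (4.89%, 4.45% and 6.46% of all). The moderated F test over the 6 groups called the same 4 probe sets (background 13.0%).

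**Figure D1:**
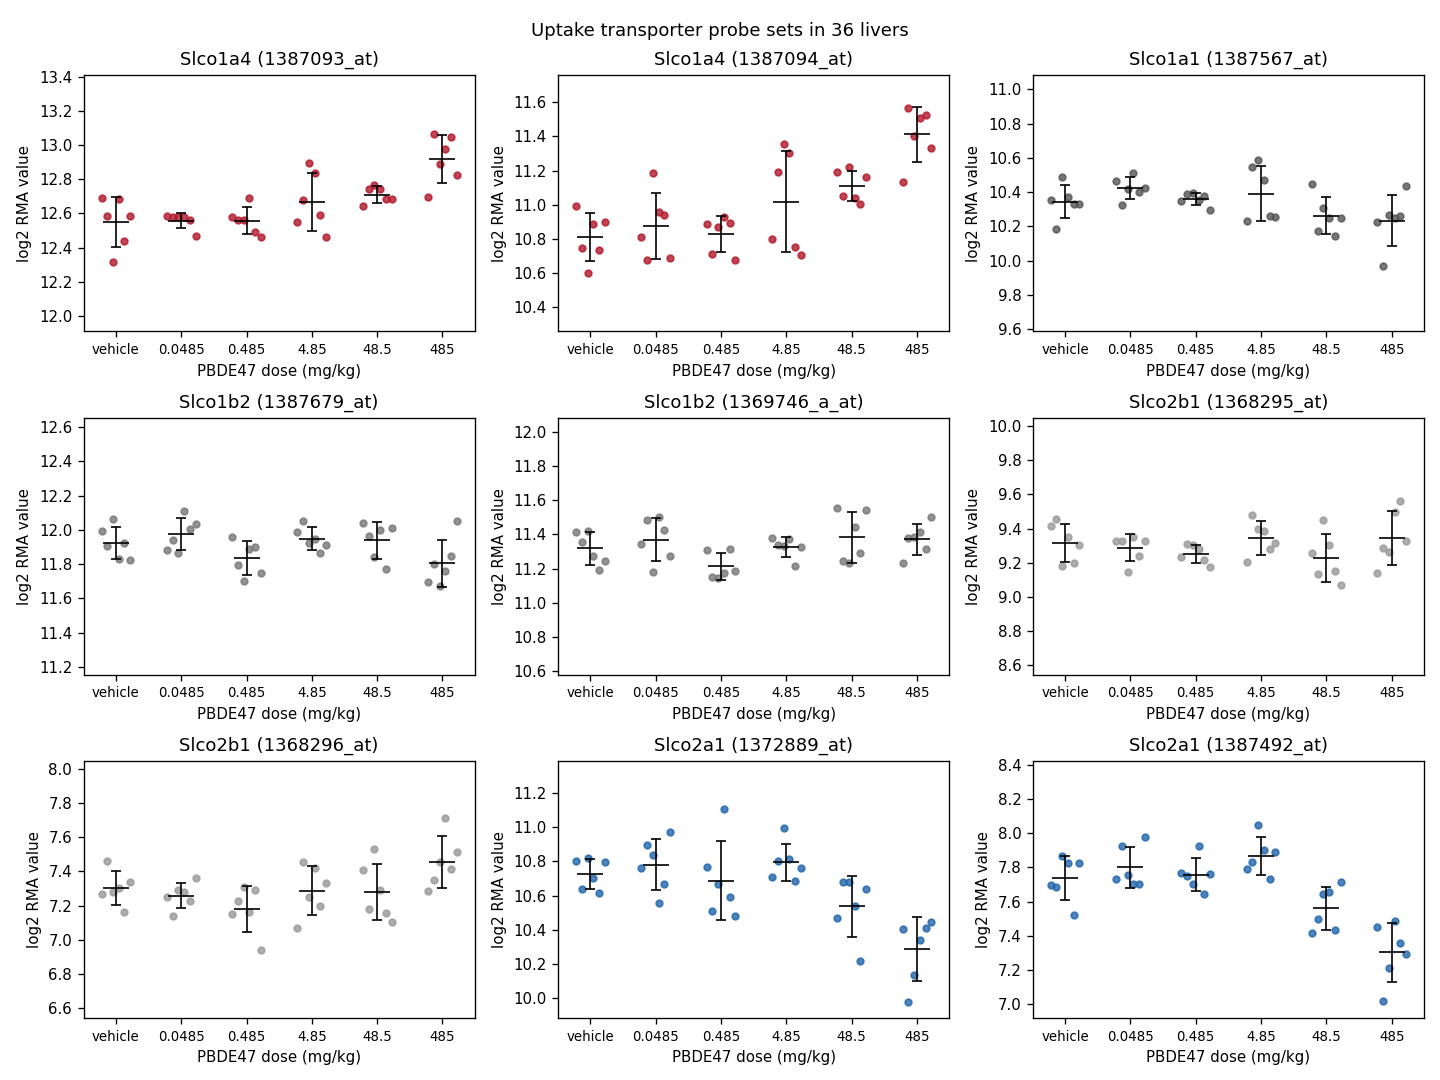
Log2 RMA values (y axis, each panel spanning the same range) of the 9 uptake transporter probe sets by PBDE47 dose in mg/kg (x axis). Points are single livers, 6 per group, and bars are the mean with SD. At 485 mg/kg every liver lies above the vehicle livers for both Slco1a4 probe sets, and below them for both Slco2a1 probe sets.

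Slco1a4, the digoxin and bile acid carrier, had values between 12.70 and 13.06 on probe set 1387093_at at 485 mg/kg (median 12.93). Vehicle livers lay between 12.31 and 12.69 (median 12.59). All 6 livers at 485 mg/kg were above all 6 vehicle livers, as 4.30% of all probe sets were, and the highest vehicle liver came close to the lowest treated one. The log2 change was 0.37 ± 0.07 (SE, n = 6 each, 95% interval 0.23 to 0.51, limma adjusted p = 0.000138).

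The other Slco1a4 probe set, 1387094_at, had values between 11.13 and 11.57 at 485 mg/kg (median 11.45), against 10.60 to 10.99 in vehicle livers (median 10.82). These groups were also apart, with a log2 change of 0.60 ± 0.10 (SE, n = 6 each, interval 0.40 to 0.80, limma adjusted p = 2.40e-05). An exact permutation test gave two-sided p = 0.00216 for each of the pair, the smallest this design allows. The change on 1387093_at was smaller by 0.23 (first minus second -0.23, exact permutation p = 0.00216, adjusted p = 0.0173 over 8 such tests, which were added after the values were seen). The size of the rise therefore differed between probe sets of this gene, while its direction was shared.

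In the next group down, at 48.5 mg/kg, Slco1a4 values on 1387093_at lay between 12.64 and 12.77 (median 12.71), against 12.31 to 12.69 in vehicle livers (median 12.59). The groups overlapped, and the change of 0.16 ± 0.07 had a limma adjusted p of 0.230. On 1387094_at the 48.5 mg/kg livers, from 11.00 to 11.22 (median 11.10), lay above the vehicle livers, as 1.52% of all probe sets did. Its change of 0.30 ± 0.10 missed the threshold of the model over all probe sets (limma adjusted p = 0.0947), while its own exact permutation p was 0.00216, 1 of 45 such tests over the members. In a fit on these 12 arrays alone it passed, with a limma adjusted p of 0.0446.

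Between neighbouring high doses, the step of 0.21 ± 0.07 for Slco1a4 on 1387093_at at 485 against 48.5 mg/kg did not pass (limma adjusted p = 0.0783). On 1387094_at the step was 0.30 ± 0.10 (limma adjusted p = 0.0768). Without the 485 mg/kg replicate 1, both passed, at 0.25 and 0.36 (limma adjusted p = 0.0275 and 0.0353). Against 4.85 mg/kg, the 485 mg/kg livers were higher by 0.25 ± 0.07 and 0.39 ± 0.10 (limma adjusted p = 0.0111 and 0.00549, background 12.8%), a comparison added later. The means of 1387093_at, from vehicle up through the doses, were 12.55, 12.56, 12.56, 12.67, 12.71 and 12.92. Only the highest dose was called against vehicle.

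Slco2a1, the prostaglandin transporter, had values between 9.98 and 10.45 on 1372889_at at 485 mg/kg (median 10.37). Vehicle livers lay between 10.62 and 10.82 (median 10.75). All 6 treated livers were below all 6 vehicle livers, as 3.03% of all probe sets were, and the log2 change was -0.44 ± 0.09 (SE, n = 6 each, interval -0.63 to -0.25, limma adjusted p = 0.000606).

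On the other Slco2a1 probe set, 1387492_at, values at 485 mg/kg ran between 7.02 and 7.49 (median 7.33), against 7.52 to 7.87 in vehicle livers (median 7.76). The groups were again apart, with a log2 change of -0.43 ± 0.07 (SE, n = 6 each, interval -0.58 to -0.28, limma adjusted p = 3.78e-05). The exact permutation p was 0.00216 for both probe sets. Their changes differed by -0.01 (exact permutation p = 0.883, and also 0.883 after adjustment over the 8 tests).

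Slco2a1 at 48.5 mg/kg was -0.19 ± 0.09 and -0.18 ± 0.07 from vehicle on the log2 scale, with limma adjusted p-values of 0.312 and 0.217. Its values on 1372889_at lay between 10.22 and 10.68 (median 10.59) and overlapped those of vehicle livers. Against 4.85 mg/kg, 1387492_at was lower at 48.5 mg/kg by a log2 change of -0.31 ± 0.07 (limma adjusted p = 0.0301), the single member called of 9 (background 1.18%). At 485 against 48.5 mg/kg it was again the single one called, at -0.26 ± 0.07 (limma adjusted p = 0.0343, background 4.86%). Both calls were near the threshold and were lost without single livers. The first was lost without replicate 3, 4 or 6 at 4.85 mg/kg or replicate 1, 2 or 5 at 48.5 mg/kg (log2 changes between -0.30 and -0.27). The second was lost without replicate 3, 4 or 6 at 48.5 mg/kg or replicate 2, 3 or 6 at 485 mg/kg (log2 changes between -0.25 and -0.20).

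In whole liver, fewer cells of a type and less RNA per cell cannot be told apart, and PGT is also known in endothelial cells. Over all named genes 9.43% were called lower and 11.5% higher at 485 mg/kg. Of 6 measured markers of liver sinusoidal endothelium, 2 fell at that dose, the receptor genes Kdr (log2 change -0.43) and Mrc1 (-0.40), and the list's mean lay between 8.74 and 8.93 there, against 8.90 to 9.16 in vehicle livers. Of 5 vascular endothelial markers 1 fell, Pecam1, with list means of 7.13 to 7.39 at 485 mg/kg and 7.32 to 7.52 in vehicle livers. Of 6 Kupffer cell and macrophage markers 3 fell, with list means of 7.86 to 8.44 at 485 mg/kg and 8.52 to 8.71 in vehicle livers. The lowest livers at 0.485, 4.85 and 48.5 mg/kg lay within that 485 mg/kg range, at 7.98, 7.95 and 7.98. At those doses 0 of these markers were called. Of 8 hepatocyte markers 5 fell, with list means of 14.27 to 14.33 at 485 mg/kg against 14.45 to 14.48 in vehicle livers. Of 3 erythroid markers 3 fell, Hbb, Alas2 and Car1, with list means of 7.24 to 7.83 at 485 mg/kg against 8.03 to 8.54 in vehicle livers. Of 7 T and NK cell markers 2 fell, with list means of 4.60 to 4.77 at 485 mg/kg and 4.76 to 5.12 in vehicle livers. Of 5 cholangiocyte markers 1 rose, Epcam, with list means of 5.54 to 5.78 at 485 mg/kg and 5.48 to 6.09 in vehicle livers. Of 6 stellate cell markers 0 were called, with list means of 7.41 to 7.82 at 485 mg/kg and 7.43 to 7.95 in vehicle livers. Markers with means below every array median numbered 6 for T and NK cells, 2 for cholangiocytes, 1 for erythroid cells, 1 for stellate cells and 0 in the first 4 lists. The part of these markers in the changes of Slco2a1 and Slco1a4 was not tested.

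Slco1a1, the bile acid and steroid conjugate carrier, ran from 9.97 to 10.44 at 485 mg/kg (median 10.25), against 10.19 to 10.49 in vehicle livers (median 10.34). The groups overlapped, with a log2 change of -0.11 ± 0.07 (SE, n = 6 each, interval -0.25 to 0.03, limma adjusted p = 0.318).

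Slco1b2, the liver-specific carrier, ran from 11.67 to 12.05 on 1387679_at at 485 mg/kg (median 11.78), against 11.82 to 12.07 in vehicle livers (median 11.91). Its log2 changes were -0.12 ± 0.06 (interval -0.24 to 0.01, limma adjusted p = 0.234) and, on 1369746_a_at, 0.05 ± 0.06 (interval -0.08 to 0.18, limma adjusted p = 0.675). The changes of the Slco1b2 probe sets differed by -0.17 (exact permutation p = 0.00433, adjusted p = 0.0173 over 8 tests) and neither was called, so no direction is given for the gene.

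Slco2b1, the steroid sulfate carrier, ran from 9.14 to 9.56 on 1368295_at at 485 mg/kg (median 9.31), against 9.18 to 9.46 in vehicle livers (median 9.33). Its log2 changes were 0.03 ± 0.07 (interval -0.11 to 0.16, limma adjusted p = 0.850) and, on 1368296_at, 0.15 ± 0.08 (interval 0.00 to 0.31, limma adjusted p = 0.203). The groups overlapped on both. In a comparison added later, 1368296_at was higher at 485 than at 0.485 mg/kg by 0.27 ± 0.08 (limma adjusted p = 0.0111, background 13.7%), while 1368295_at was not called (0.09 ± 0.07). On 1368296_at the 0.485 mg/kg mean of 7.18 was the lowest of the 6 groups, below the vehicle mean of 7.30.

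**Figure D2:**
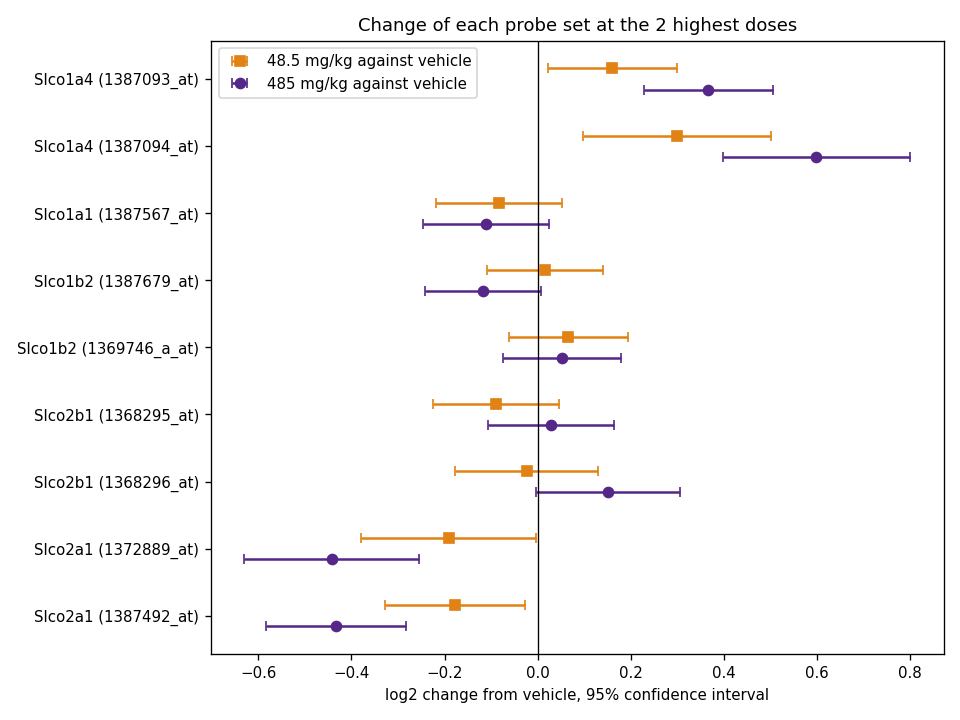
Log2 change from vehicle (x axis) of the 9 probe sets (rows) at 48.5 and 485 mg/kg, with 95% confidence intervals from the limma model. At 485 mg/kg the intervals of both Slco1a4 probe sets lie above 0 and those of both Slco2a1 probe sets below 0, and the other 5 include 0.

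The members were set against each other within each liver, as the difference of their representative probe sets, so that a shared shift cancels. At 485 mg/kg, 7 of the 10 pairs differed in their change from vehicle by an exact permutation test over livers, each with an adjusted p of 0.00962 over 20 tests (10 pairs at 2 doses). Each of these 7 pairs holds Slco1a4 or Slco2a1, the members already called at that dose, so they are not 7 separate results. Slco1a4 rose relative to Slco1a1 by 0.48 ± 0.13, relative to Slco1b2 by 0.48 ± 0.12, relative to Slco2b1 by 0.34 ± 0.06 and relative to Slco2a1 by 0.81 ± 0.14 (log2, SE). The difference of Slco1a4 and Slco2a1 in single livers ran from 2.29 to 3.08 at 485 mg/kg, against 1.50 to 1.98 in vehicle livers, so those groups did not overlap. For Slco1a4 and Slco1a1, the adjacent genes with like promoters, the ranges were 2.39 to 3.10 at 485 mg/kg and 1.82 to 2.40 in vehicle livers, which touch.

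Slco2a1 fell relative to Slco1a1 by 0.33 ± 0.06, relative to Slco1b2 by 0.33 ± 0.09 and relative to Slco2b1 by 0.47 ± 0.11, each as the other gene minus Slco2a1. The 3 pairs among Slco1a1, Slco1b2 and Slco2b1 did not pass, with differences of 0.01 ± 0.07, -0.14 ± 0.11 and -0.15 ± 0.10 (SE). The 48.5 mg/kg livers differed from vehicle in the pairs of Slco1a4 with Slco2b1 (0.25 ± 0.06) and with Slco2a1 (0.35 ± 0.10), at the same adjusted p of 0.00962 by the exact permutation test. At that dose Slco1a4 minus Slco1a1 was 0.24 ± 0.10 (exact permutation, adjusted p = 0.0551).

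On chromosome 4, RefSeq orders Slco1c1, Slco1b2, Slco1a4, Slco1a1, Slco1a3, Slco1a6 and Slco1a5 next to each other. Slco1a4 was the single gene called at 485 mg/kg in this run and among its measured neighbours Plekha5, Aebp2, Pde3a, Iapp and Recql. Over all named genes 11.5% were called higher and 9.43% lower at that dose, so this count does not set Slco1a4 apart. The means of Pde3a and Iapp lay below every array median, so these neighbours carry little information. Plekha5 was 0.28 ± 0.11 from vehicle (limma adjusted p = 0.0709). Of the other Slco genes, 8 of 12 listed were measured and 0 were called at 485 mg/kg (over all named genes 9.43% lower and 11.5% higher), with log2 changes between -0.06 and 0.05. The means of 7 of these 8, the 4 nonmember Slco genes of the run among them, lay below every array median, so their values carry little information. Slco2b1 lies on chromosome 1 and Slco2a1 on chromosome 8.

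**Figure D3:**
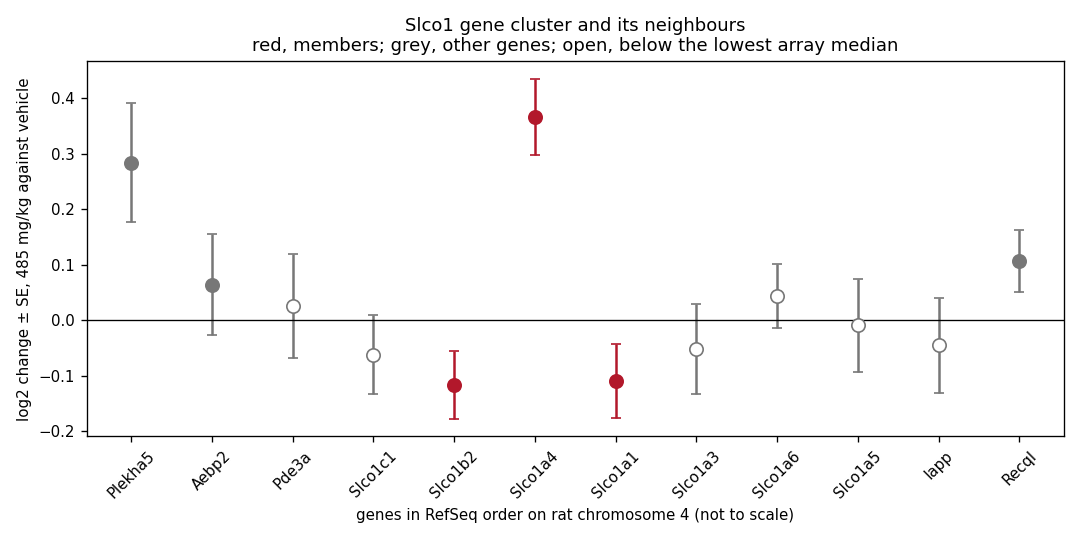
Log2 change at 485 mg/kg against vehicle with SE (y axis) of the genes around the Slco1 run on rat chromosome 4, in RefSeq order and not to scale (x axis). Open points are genes with means below the array medians. Slco1a4, at 0.37, was called, and the other points were not.

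Other carriers of the sinusoidal membrane were mostly lower at 485 mg/kg, unlike Slco1a4. Of 10 measured, 6 fell and 1 rose at 485 mg/kg, with a median log2 change of -0.28, while over all named genes 9.43% fell and 11.5% rose with a median of -0.01. Slc22a8, the organic anion transporter Oat3, fell by 1.10 ± 0.12 on the log2 scale (limma adjusted p = 1.24e-08). Slc22a7, the organic anion transporter Oat2, fell by 0.40 ± 0.06 (limma adjusted p = 1.61e-06). Slc16a1, the lactate carrier MCT1, fell by 0.84 ± 0.13 (limma adjusted p = 9.56e-06). The amino acid carriers Slc16a10 and Slc7a8 fell by 0.51 ± 0.16 and 0.29 ± 0.07, and the nucleoside carrier Slc29a2 rose by 0.23 ± 0.08.

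Slc10a1, the sodium-dependent bile acid carrier NTCP, ran from 12.85 to 13.15 at 485 mg/kg (median 13.02), against 13.17 to 13.36 in vehicle livers (median 13.32). The groups did not overlap, and the log2 change was -0.27 ± 0.05 (limma adjusted p = 6.58e-05). None of these 10 carriers was called at 48.5 mg/kg (limma), where 4.03% of all named genes were called higher and 1.08% lower.

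Efflux carriers, which move conjugates out of hepatocytes, had 4 of 10 measured members higher (as were 11.5% of all named genes) and 1 lower (as were 9.43%) at 485 mg/kg, with a median of -0.02. The share that fell was near that of all genes. Abcc3, the sinusoidal conjugate exporter MRP3, rose by 4.55 ± 0.15 (limma adjusted p = 4.98e-23). Abcb1a, a P-glycoprotein gene, rose by 1.57 ± 0.14, Abcc4, which also exports prostaglandins, by 0.91 ± 0.15, and Abcc2, the canalicular conjugate exporter, by 0.77 ± 0.10. Abcb4, the phospholipid exporter of the canalicular membrane, fell by 0.87 ± 0.11. Abcc3, Abcb1a and Abcc2 were also called at 48.5 mg/kg, at 3.27, 0.83 and 0.50.

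Prostaglandin genes other than Slco2a1 had 4 of 16 measured members higher (as were 11.5% of all named genes) and 2 lower (as were 9.43%) at 485 mg/kg. The share that fell was near that of all genes. Ptger3, a receptor for prostaglandin E2, fell by 0.56 ± 0.10 (limma adjusted p = 0.000128) and Hpgds, the haematopoietic prostaglandin D synthase, by 0.35 ± 0.11. Ptgr1, a prostaglandin reductase, rose by 0.37 ± 0.09, and the prostaglandin E synthase genes Ptges3 and Ptges2 by 0.29 ± 0.06 and 0.22 ± 0.06, beside Abcc4. Ptger3 was also lower at 48.5 mg/kg (-0.38 ± 0.10) and Ptges2 higher (0.19 ± 0.06).

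Among 16 nuclear receptors and transcription factors, 1 rose (11.5% of all named genes did) and 2 fell (9.43% did) at 485 mg/kg, shares near those of all genes. Ahr, the aryl hydrocarbon receptor, rose by 0.76 ± 0.16, Cebpa fell by 0.46 ± 0.12, and Onecut1, the hepatic factor HNF6, fell by 2.18 ± 0.64 (limma adjusted p = 0.0160). Onecut1 values spread widely, from 6.91 to 9.71 at 485 mg/kg against 9.69 to 11.34 in vehicle livers. The Onecut1 group means, by rising dose with vehicle first, were 10.62, 9.91, 9.60, 8.51, 8.60 and 8.44. Means near that of the highest dose were thus reached from 4.85 mg/kg upward. The gene was called against vehicle only at the highest dose, and its 48.5 mg/kg change of -2.02 ± 0.64 missed the threshold (limma adjusted p = 0.0763). The PXR gene Nr1i2 was -0.02 ± 0.08 from vehicle and the CAR gene Nr1i3 -0.45 ± 0.17 (limma adjusted p = 0.0732), neither called. Of 14 measured targets of CAR and PXR, 14 rose at 485 mg/kg (median 1.72) and 14 at 48.5 mg/kg (median 1.21), including Ces2c (4.21 ± 0.14) and Cyp3a23-3a1 (1.51 ± 0.10) at 485 mg/kg. Over all named genes 11.5% rose at 485 mg/kg and 4.03% at 48.5 mg/kg. At 4.85 mg/kg 5 of the 14 targets were called higher (median 0.49), as were 0.0352% of all named genes. Abcc3 is in this list and also in that of the efflux carriers. The CYP2B joint probe set averaged 10.79 in vehicle livers and, by rising dose, 12.97 (4.85 mg/kg), 14.25 (48.5 mg/kg) and 14.44 (485 mg/kg) in log2 units. The lists were picked with results of these data known, so their counts are descriptions.

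**Figure D4:**
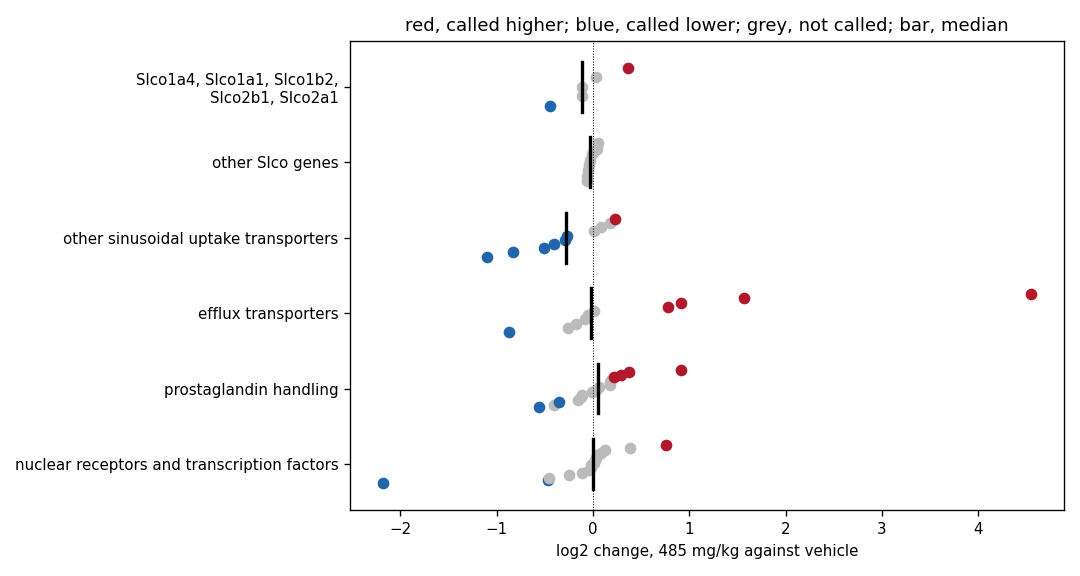
Log2 change at 485 mg/kg against vehicle (x axis) of genes in 6 sets (rows), 1 point per gene, with a line at the median. Red points were called higher, blue called lower and grey not called. Of 10 other sinusoidal carriers 6 are blue and 1 red, and Abcc3 reaches 4.55 among the efflux carriers.

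Likeness to each member was measured by Pearson's r with 14216 other genes over the 36 livers, which shares the dose effect and the array, so r is a description. Slco1a4 was closest to Akr7a2 (r = 0.839), an aldehyde-reducing enzyme, then Cyp2j4 (0.827) and Psme4 (0.826). Slco2a1 was closest to Suox, sulfite oxidase (r = 0.848), then Tmub2 (0.819) and Fmo1 (0.812). Slco1a1 was closest to the bile acid carrier Slc10a1 (0.737), then Ptprb (0.695) and Mpdz (0.691). Slco1b2 was closest to Acss3 (0.685), Rnd2 (0.647) and F9, coagulation factor IX (0.641), and Slco2b1 to Lrsam1 (0.664), Entpd8 (0.642) and Zfand2b (0.588).

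With each group's mean removed, so that only differences among livers of the same dose count, the nearest gene to Slco1a4 was Cyp3a18 (r = 0.804 over 36 livers), a cytochrome P450 gene. Cyp3a18 itself rose at 485 mg/kg by 0.29 ± 0.09 (limma adjusted p = 0.0245) and was at -0.15 ± 0.09 at 48.5 mg/kg. Slco1a1 kept Slc10a1 as its nearest gene (r = 0.684). For Slco2b1 it was Entpd8 (0.663), for Slco1b2 Spidr (0.668) and for Slco2a1 Pigr (0.692). Among the members themselves, these deviations correlated most for Slco1a4 with Slco2b1 (r = 0.565), Slco1a1 with Slco1b2 (0.387) and Slco1a1 with Slco2a1 (0.373).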

How the data were processed

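The deposited values are log2 values, 1 per probe set and array, which the authors made with RMA in the R package affy, per the submitters' processing notes; versions and genome build are not given in the sources used here. RMA corrects background, quantile normalizes and summarizes each probe set, so values are relative to a distribution shared by the arrays, and small shifts common to many probe sets are removed. The array medians lay between 5.31 and 5.38, and 0 pairs of arrays were identical. An array has no depth, so the number of arrays limits the precision. Nothing states outright that arrays are of separate animals. The p-values set group differences against the spread among these arrays within groups. If arrays shared an animal, the p-values would be too small.

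Of 31099 probe sets, 57 controls were left out. The platform annotation gave a single gene to 20826 (20758 matched RefSeq on GRCr8), several to 436 and none here to 9780. A gene was represented by its probe set with the highest mean. One-way models were fitted in limma 3.58.1 (R 4.3.3, 30 residual and 5.26 prior degrees of freedom) and tested on simulated data. The study named R/maanova with a false discovery rate under 5%, which was not used here. Named genes were the members, called list genes and, per member, the 3 with the highest r. The members, lists and tests were chosen with earlier results of these data known. Alternatives were quantile and median scaling, a dim filter, other moderation, array weights, the 2 groups alone, the replicate number as a block, and single livers left out. Same-numbered arrays of a dose and vehicle were not taken as pairs, as detailed with the alternatives.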

Additional observations from a re-analysis of the deposited data

Results flagged for a closer look

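Of 54 groups of 6 livers examined for a value standing apart from the others of its group, 2 met the Dixon criterion of a gap over 0.625 of the range, and chance gives about 1 in 20. Slco1a4 (1387093_at) in 0.0485 mg/kg replicate 6 was the lowest of its group at 12.47, with the others between 12.56 and 12.59 (gap over range 0.79). Slco1b2 (1369746_a_at) in 4.85 mg/kg replicate 5 was the lowest at 11.22, with the others between 11.32 and 11.38 (0.68).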

How the results depend on the processing

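The calls of Slco1a4 (higher) and Slco2a1 (lower) at 485 mg/kg against vehicle, on both probe sets of each, kept their direction and their side of the threshold under every alternative run, leaving out single livers included. Their representative log2 changes ran from 0.32 to 0.41 and from -0.47 to -0.38 when single livers were left out. With the replicate number as a block, the probe sets called at 485 mg/kg against vehicle numbered 4745 and the members 4, and the block changed no member's call. Deviations of same-numbered dose and vehicle arrays correlated between -0.175 and 0.23 over 30 pairs, with 8 above 0.1. Differently numbered arrays were not compared, and the numbers were not taken to pair samples. No value that passed the test under any setting changed sign. Uncalled values near 0 did, among them at 485 mg/kg after quantile normalization -0.0050 for Slco1b2 (1369746_a_at, 0.05 as reported) and -0.0086 for Slco2b1 (1368295_at, 0.03 as reported), and the Slco2b1 change was also below 0 without 485 mg/kg replicate 4 or 5 (-0.01 without replicate 5).

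The smaller contrasts depended on the setting, and the cause was not tested. At 485 against 48.5 mg/kg, Slco1a4 (1387093_at) passed after quantile normalization (0.24, limma adjusted p = 0.0274), with a filter on dim probe sets (0.21, 0.0438) and with trend and robust moderation (0.21, 0.0460). Slco2a1 (1387492_at, -0.26 as reported) lost its call there after quantile normalization (-0.22, 0.0672) and on the 2 groups alone (-0.26, 0.125). At 48.5 against 4.85 mg/kg (-0.31) it lost the call after centring (-0.29, 0.0511) and on the 2 groups alone (-0.31, 0.0754). At 485 against 48.5 mg/kg the members called were 3 with the filter and 2 with that moderation. At 48.5 against 4.85 mg/kg the members called were 0 after centring on array medians and 0 in a fit on the 2 groups alone, and the probe sets called were 573 with the filter and 171 in that fit. Fits on the 2 groups alone gave 1 probe set at 4.85 mg/kg against vehicle, 556 at 48.5 mg/kg with 1 member (Slco1a4, 1387094_at), and 880 at 485 against 48.5 mg/kg. Slco1a4 minus Slco1a1 at 48.5 mg/kg passed with gene means (0.31, adjusted p = 0.0130, exact permutation) and in limma (0.24, 0.0152), as did Slco1b2 minus Slco2a1 (0.23, 0.0354 and 0.21, 0.0499).

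Leaving out single livers gave 678 to 1138 probe sets at 48.5 mg/kg against vehicle (lowest without 48.5 mg/kg replicate 5), 155 to 437 at 48.5 against 4.85 mg/kg and 1127 to 1530 at 485 against 48.5 mg/kg. The members called ran from 0 to 1 at 48.5 against 4.85 mg/kg and from 0 to 3 at 485 against 48.5 mg/kg. There the change of Slco1a4 (1387093_at) ran from 0.18 to 0.25 and that of Slco2a1 (1372889_at) from -0.32 to -0.19, called without 48.5 mg/kg replicate 5. At 48.5 mg/kg, Slco1a4 minus Slco1a1 ran from 0.17 to 0.29, past the threshold without vehicle replicate 2 or 48.5 mg/kg replicate 1. Slco1b2 minus Slco2a1 ran from 0.17 to 0.25, past it without 48.5 mg/kg replicate 3.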

Other observations

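At 4.85 mg/kg, Slco1a4 (1387093_at) was at 12.55, 12.68, 12.90, 12.84, 12.59 and 12.46 in replicates 1 to 6, an SD of 0.169 against 0.146 in vehicle livers. In the same order 1387094_at was at 10.80, 11.19, 11.36, 11.30, 10.76 and 10.71, an SD of 0.296 against 0.142 in vehicle livers. Slco1a1 in the same livers was at 10.23, 10.55, 10.59, 10.47, 10.26 and 10.25. The mean of the Kupffer cell and macrophage markers was 8.01 in replicate 5 and 7.95 in replicate 6, against 8.73 to 8.88 in replicates 1 to 4. The array of replicate 6 had the lowest quality weight of the 36 (0.388, the next 0.588) and the lowest mean correlation with its group (0.9906, the next 0.9926). These values were read from the data after the fact and no test was run on them.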
